A study of Homo sapiens with 18 samples.

Results

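FAM129A and FAM129B, now named NIBAN1 and NIBAN2, are the genes described here, taken from the deposited tables by their Entrez gene IDs. They are 2 of the 19401 genes listed in at least 1 of the 3 tables, and both are listed in all 3. They were chosen by the measured fold changes of these same comparisons, so their fold changes are given as a description with no test. The cells were MCF10A, a non-tumorigenic immortalized line of human breast epithelium, grown without treatment and kept under passage 30. The 18 samples formed 5 groups. CBFB KO (3 samples, 1 clone) was compared with its own WT (3 samples). RUNX1 KO1 and RUNX1 KO2 (4 samples each, 2 clones) were both compared with 1 RUNX1 WT group of 4 samples, so these comparisons share their controls. The knockouts were made with CRISPR-Cas9 from single-cell colonies, and differences between clones cannot be told apart from the loss of the gene. The comparisons ask what the loss of RUNX1, a transcription factor, or of CBFB, its partner that binds no DNA itself, does to the RNA of these cells.

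Niban proteins are cytoplasmic scaffold-like proteins that share a pleckstrin homology domain. FAM129A was described as a gene induced under stress of the endoplasmic reticulum (ER) and amino acid shortage, downstream of the transcription factor ATF4, and it has been tied to phosphorylation of the translation factor eIF2α and of mTOR targets. FAM129B, also called MINERVA, is found at cell junctions of epithelial cells, is phosphorylated downstream of growth factor receptors and ERK, and is known to protect cells from apoptosis. The remaining family member, FAM129C, is known mainly from B cells.

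The RefSeq promoter table held both genes. The stretch from 250 to 51 bases before each RefSeq start is shown because RUNX factors bind DNA and the members' RNA was measured with and without them. For FAM129A it is chr1:184974559-184974758, and for FAM129B it is chr9:127579082-127579281, both on the minus strand of GRCh38.p14 and outside the annotated gene. Capitals mark matches to the motifs searched.
FAM129A: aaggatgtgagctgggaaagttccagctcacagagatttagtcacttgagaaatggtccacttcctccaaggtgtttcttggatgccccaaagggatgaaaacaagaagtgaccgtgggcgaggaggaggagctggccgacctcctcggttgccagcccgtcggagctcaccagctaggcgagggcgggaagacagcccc
FAM129B: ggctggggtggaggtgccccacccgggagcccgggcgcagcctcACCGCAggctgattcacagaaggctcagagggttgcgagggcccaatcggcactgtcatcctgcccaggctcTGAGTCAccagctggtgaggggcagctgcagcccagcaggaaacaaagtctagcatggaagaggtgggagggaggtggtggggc

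The motifs were the RUNX core (TGTGGT or TGCGGT), the amino acid response core through which ATF4 acts (TGATGNAA) and the AP-1 element (TGAGTCA), each read on both strands and none overlapping another in these windows. The FAM129A window held no match to any of them. The FAM129B window held 1 TGCGGT, on the opposite strand as ACCGCA, and 1 TGAGTCA. Over 35116 promoter windows of the same 200 bases, 13.3% held a RUNX core in either form, 2.5% the amino acid response core and 3.23% the AP-1 element. The FAM129B window lies before the outermost RefSeq start of the gene, and which start MCF10A cells use was not tested. A match is a run of letters and not a binding site, and the window leaves out enhancers and introns.

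FAM129A was nearly silent in both WT groups and was clearly expressed in all 3 knockouts, while FAM129B was abundant in every group and differed little. The deposited tables hold no value per library, so each group is given as its mean. In the CBFB experiment the mean of FAM129A over all 6 libraries was 797 normalized counts, which are reads scaled for library size by the authors. The deposited log2 fold change was 7.08 ± 0.22 (SE, n = 3 per group). In RUNX1 KO1 the mean was 338 normalized counts and the log2 fold change 6.46 ± 0.24 (SE, n = 4 per group). In RUNX1 KO2 they were 260 normalized counts and 5.50 ± 0.36 (SE, n = 4 per group). All 3 knockouts lay on the same side of WT. FAM129A ranked 2 by fold change among the 10921 genes averaging at least 100 normalized counts in the CBFB table, behind CCND2, 1 of 10699 in KO1 and 1 of 10224 in KO2.

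**Figure D1:**
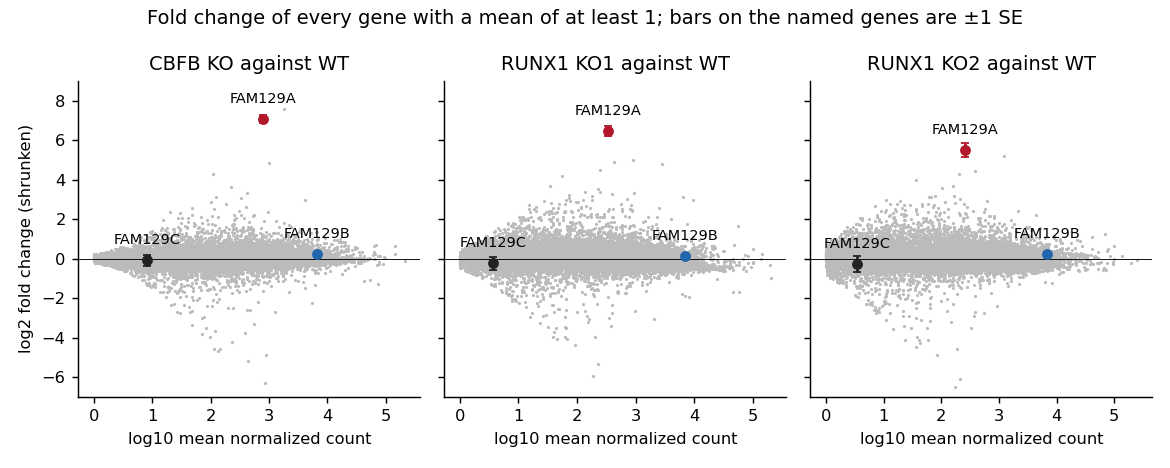
Log2 fold change of each knockout against WT (vertical axis) against the log10 mean normalized count (horizontal axis), 1 grey point per gene with a mean of at least 1. FAM129A, at 7.08, 6.46 and 5.50, stands above the cloud in each panel, and FAM129B, between 0.13 and 0.24, lies inside it; bars are ±1 SE.

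These fold changes are the shrunken estimates of the authors' fit, which pulls large changes toward 0. Read without allowing for that, they imply a WT level of FAM129A of 11.7 normalized counts in the CBFB experiment. The same RUNX1 WT libraries come out at 7.59 from the KO1 table and 11.2 from the KO2 table. Since 1 set of libraries gave both values, the implied WT level carried the shrinkage. The group means were therefore recovered by solving the equations of the shrunken fit from each gene's deposited mean, fold change and SE, a step chosen after the data were seen.

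The recovered WT level of FAM129A was 0.614 normalized counts per library in the CBFB experiment. In the RUNX1 experiment it was 1.02 from the KO1 table and 0.87 from the KO2 table. These amounts correspond to sums of 1.84, 4.09 and 3.48 normalized counts over all WT libraries of each comparison, that is, a handful of reads. The recovered knockout level was 1593 normalized counts per library for CBFB KO, against 675.6 for KO1 and 518.9 for KO2. To the nearest whole read, these are 2 reads in the WT of the CBFB experiment and 4 in that of the RUNX1 experiment, where both tables were given the same number because they share those libraries. Knockout over WT was 2597-fold in CBFB KO, with a 95% exact Poisson interval of the WT reads from 719 to 21400. It was 660.1-fold in KO1 (258 to 2420) and 596.5-fold in KO2 (233 to 2190). The intervals cover counting error of the recovered WT reads only. The intervals of CBFB KO and the RUNX1 clones overlap and leave out the spread between knockout libraries. They therefore do not settle the order of the fold, and a difference was not tested.

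Over the 10174 genes that averaged 100 or more in both RUNX1 tables, the recovered WT levels differed between the tables by a common offset of 0.08 (log2) with an SD of 0.0051 around it. The implied levels differed with an SD of 0.034. Among the 62 genes with a 4-fold change in either clone, the SD was 0.020 for the recovered and 0.16 for the implied levels. FAM129A had the lowest recovered WT level of these genes, and its 1.02 and 0.87 differed by more than the offset and this SD. The agreement thus rests mostly on genes with more WT reads. How far the recovered WT level of FAM129A depends on the assumed strength of the shrinkage was not tested.

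**Figure D2:**
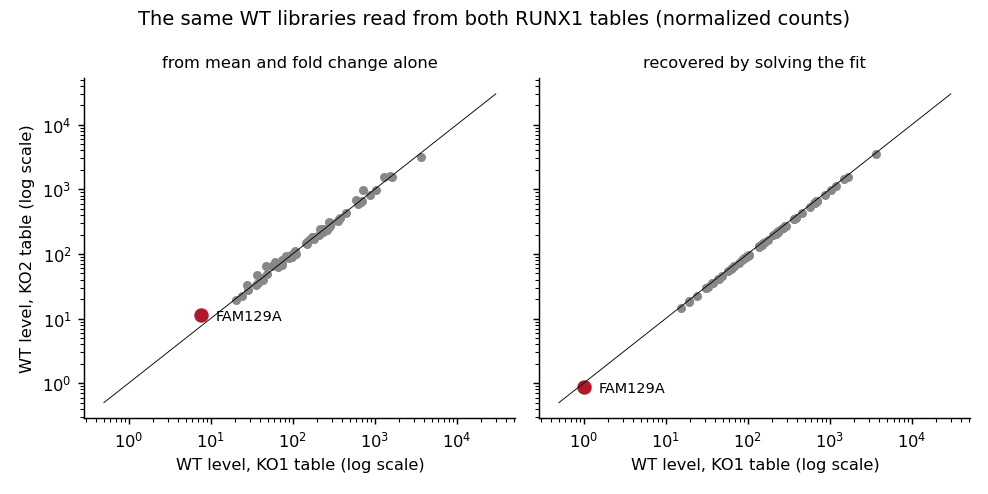
WT level (normalized counts, log axes) of the 62 genes changed at least 4-fold in either RUNX1 clone, from the KO1 table (horizontal) and the KO2 table (vertical), with the line of equality. FAM129A, in red, moves from 7.59 and 11.2 when the shrunken fold change is taken at face value to 1.02 and 0.87 when the fit is solved.

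The tables were normalized separately, so levels across them are given per 1000000 of each table's summed normalized counts. FAM129A stood at 78.8 ± 3.5 per 1000000 (SE from the recovered dispersion, n = 3) in CBFB KO, 37.4 ± 1.8 (n = 4) in KO1 and 31.5 ± 6.53 (n = 4) in KO2. Its WT level was 0.0304 per 1000000 in the CBFB experiment and, in the RUNX1 experiment, 0.0567 by the KO1 table and 0.0528 by the KO2 table. CBFB KO thus held the highest level of the 3 knockouts, and KO1 and KO2 did not differ beyond their SEs. The dispersions behind these SEs depend on the assumed strength of the shrinkage, and how far was not tested. CBFB KO and the RUNX1 clones belong to separate experiments with separate WT groups. A difference between the experiments therefore cannot be told apart from the gene lost. The deposited log2 fold change was higher in CBFB KO than in KO1 by 0.62 ± 0.32 (combined SE) and than in KO2 by 1.58 ± 0.43. These are differences of shrunken values from fits with priors of different width (SD 0.586 for the CBFB table, 0.628 for KO1 and 0.822 for KO2), so they give no order of the rise. No combined SE is given for KO1 against KO2, which share WT libraries.

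The spread of FAM129A between libraries, as recovered from the fit, differed among the comparisons. The recovered dispersion corresponds to a coefficient of variation of 7.27% for CBFB KO and 8.82% for KO1 but 41.2% for KO2. In the authors' fit such a value is set almost wholly by the knockout libraries, because the recovered WT reads were so few. In the same tables the median over genes averaging 100 or more was 9.71%, 9.54% and 22.0%. Of these genes, 13.5% varied less than FAM129A for CBFB KO, against 38.3% for KO1 and 89.7% for KO2. By this recovery FAM129A was on the even side in CBFB KO and on the variable side in KO2. For CBFB KO and KO1 its dispersion was a small remainder after a term for the low WT level was subtracted. That remainder depends on the assumed strength of the shrinkage, and how far was not tested, so these places are not firm.

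FAM129B was among the abundant transcripts of MCF10A cells in every group. Its mean was 6523 normalized counts for CBFB KO and its WT, 6914 for KO1 and its WT, and 6741 for KO2 and its WT. Recovered levels were 5970 in WT and 7077 in CBFB KO (n = 3 each). They were 6597 in WT and 7231 in KO1, and 6222 in WT and 7260 in KO2 (n = 4 each). The deposited log2 fold changes were 0.24 ± 0.12, 0.13 ± 0.05 and 0.22 ± 0.06 (SE), all above 0 and all under 1.2-fold. Between 66.6% and 79.7% of genes averaging 100 or more had a lower fold change, so its rise was ordinary in size. After subtracting the trend of fold change on transcript length and GC content over these genes, the values were 0.08, 0.04 and -0.01, with the sign turned in KO2. FAM129B has a GC-rich transcript (63.5%), against 45.6% for FAM129A, and the part of base composition in its small differences was not tested further.

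The recovered spread of FAM129B between libraries was low in the RUNX1 experiment. Its coefficient of variation was 4.52% in KO1, below that of every other gene averaging 100 or more in that table, and 5.81% in KO2, where 0.333% of genes were lower. In the CBFB table it was 10.1%, close to the median. Its deposited SEs of 0.047 in KO1 and 0.06 in KO2 stood beside median SEs of 0.11 and 0.21. All of these values come from the authors' fit, with a single dispersion for WT and knockout together, and no value per library was there to check them. The KO1 and KO2 values share their WT libraries, so they are not independent.

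Between the members, the log2 fold change of FAM129A exceeded that of FAM129B by 6.85 ± 0.25 with CBFB lost, and by 6.33 ± 0.24 in KO1 and 5.28 ± 0.37 in KO2 with RUNX1 lost (combined SE). Per kilobase of the longest GENCODE 29 transcript (6928 bases for FAM129A, 3957 for FAM129B), the recovered level of FAM129B stayed above that of FAM129A in every group. FAM129B stood at 1509 and FAM129A at 0.0886 normalized counts per kilobase in the WT of the CBFB experiment. In CBFB KO they stood at 1789 and 230, so that FAM129A made up 11.4% of the summed level of both, against 0.00587% in WT. The share of FAM129A was 5.07% in KO1 and 3.92% in KO2, against 0.00886% and 0.00798% in WT by the same tables.

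Ranked per kilobase among all genes with a transcript length, FAM129A stood above 3.63% of genes in the WT of the CBFB experiment and above 70.8% in CBFB KO. In the RUNX1 experiment it moved from above 6.97% to above 57.9% in KO1, and from above 6.53% to above 55.7% in KO2. FAM129B stood above 95.5% to 96.8% of genes in all groups. FAM129A thus moved from the silent end of all listed genes to their middle or above it, without coming near FAM129B. These ranks count many listed genes near 0. Genes averaging 100 or more were 10921 of the 18526 listed in the CBFB table. They were 10699 of 18517 in KO1 and 10224 of 18117 in KO2. A rank per kilobase among those genes alone was not computed.

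**Figure D3:**
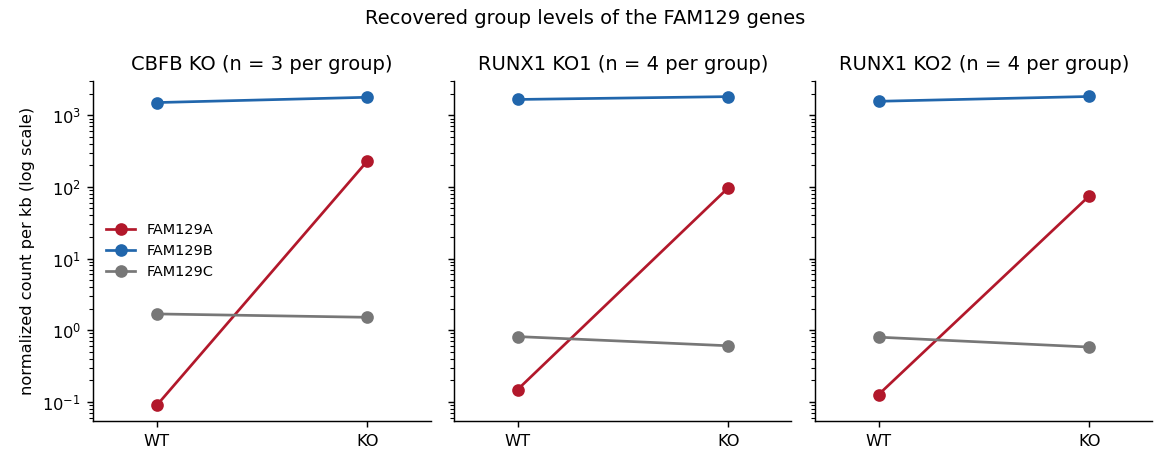
Recovered group mean of FAM129A, FAM129B and FAM129C in normalized counts per kilobase of transcript (log axis) in WT and knockout, 1 panel per comparison. The FAM129A line rises from 0.0886, 0.148 and 0.126 in WT to 230, 97.5 and 74.9 in the knockouts; the other two lines are nearly flat.

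FAM129C remained at the edge of detection, with means of 8.16, 3.62 and 3.52 normalized counts. Its log2 fold changes were -0.09 ± 0.29 in CBFB KO (adjusted p = 0.879), -0.24 ± 0.31 in KO1 (0.589) and -0.28 ± 0.40 in KO2 (0.782), by the deposited DESeq2 Wald test with Benjamini-Hochberg adjustment. None passed the test, and the SEs leave room for changes of moderate size in either direction.

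With limits chosen after the values were seen (a recovered WT level under 2 and a knockout level over 100 normalized counts), 3 genes went from near silence to expression in CBFB KO, namely CCND2, MYO15A and FAM129A. The genes were ALPK2 and FAM129A in KO1, and FAM129A alone in KO2. FAM129A was the 1 gene on all 3 lists.

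The genes whose fold changes over the 3 tables were nearest to those of FAM129A, out of 10053 genes that averaged 100 or more in every table, were CCND2, GSDMA, IL1B, FEZ1 and FST. CCND2, a D-type cyclin that drives entry into the cell cycle, lay nearest, at a Euclidean distance of 1.60, with log2 fold changes of 7.58, 4.98 and 5.19. On the log2 ratios of the recovered levels, a measure added after the data were seen, CCND2 was still the nearest gene but lay at a distance of 6.03, with ratios of 13.88, 5.18 and 5.70 against 11.34, 9.37 and 9.22 for FAM129A. The recovered WT level of CCND2 in the CBFB experiment was 0.235 normalized counts, under 1 read over the group, so its ratio there is poorly fixed. Its RUNX1 WT level was 48.8 normalized counts by the KO1 table and 45.9 by the KO2 table, so CCND2 was already expressed there, unlike FAM129A. The shrunken distance was 4.56 for GSDMA, a pore-forming gasdermin of skin epithelium, with fold changes of 3.14, 4.50 and 4.31. On the shrunken scale it was 4.85 for IL1B, an inflammatory cytokine, 5.59 for FEZ1, a kinesin adaptor, and 5.86 for FST, the activin antagonist follistatin. FAM129A therefore had few companions of its size. FAM129B in contrast had many, since its nearest genes (EPHX4, SLC41A3, ARHGAP10, TXNDC11 and PTPRA) all lay within a distance of 0.0387.

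The targeted genes, the cell markers and the depth were checked on the same tables. CBFB had a log2 fold change of -4.88 ± 0.14 in CBFB KO. RUNX1 RNA was not lowered in its own knockouts, at 0.54 ± 0.09 in KO1 and 0.46 ± 0.13 in KO2, so RNA level does not check those labels. The 8 markers chosen for MCF10A as basal mammary epithelium, among them the general epithelial genes CDH1 and EPCAM, had means of at least 730 normalized counts in each table that lists them. Several moved with the knockouts, among them the basal keratin KRT14 (log2 fold changes of 2.97 in CBFB KO and 2.95 in KO1, not analysed here in KO2) and TP63 (0.76, 1.08 and 0.55, the last with an adjusted p = 0.227). KRT17, ITGB4, LAMB3 and CDH1 also had positive values in all 3 knockouts, not all past the deposited Wald test. In CBFB KO, LAMB3 stood at 0.12 ± 0.29 (adjusted p = 0.833) and CDH1 at 0.11 ± 0.08 (adjusted p = 0.328). CDH1 stood at 0.52 ± 0.23 in KO2 (adjusted p = 0.111). The basal keratin KRT5 went the other way (-0.27 ± 0.10, -0.24 ± 0.09 and -0.26 ± 0.13), and EPCAM was mixed (0.43, -0.15 and -0.14). Of the 4 luminal markers, KRT8, KRT18 and ESR1 were listed, and KRT8 rose in all 3 knockouts (1.36, 0.44 and 1.01). KRT18 was at 0.92, 0.19 and 0.78, and ESR1 at -0.56, 0.08 and -0.01. The part of these shifts in the rise of FAM129A was not tested. The leukocyte and endothelial markers that were listed, 4 of 5, each stood under 1. COL1A1, a fibroblast collagen that rose in all 3 knockouts (log2 fold changes of 1.40, 1.75 and 1.36), had means of 236 to 305, but COL1A2 stood at 0.146 in the CBFB table. The mean normalized counts of a table summed to between 16467400 and 20214423.

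The stress pathways that FAM129A is tied to held between 0 and 2 genes past both thresholds for a call in each knockout. The integrated stress response list held 26 genes, among them the eIF2α kinases, ATF4 and its targets. A gene was called when its adjusted p-value was under 0.05 and its fold change at least 2, by the deposited DESeq2 Wald test with adjustment over all genes tested. In CBFB KO 0 of 25 tested genes were called higher and 1 lower, against 1.72% higher and 1.26% lower over all genes. In KO1 0 of 25 were called higher and 2 lower, against 3.36% and 1.57%, and in KO2 0 of 23 and 1, against 3.9% and 1.58%. NUPR1, a stress-induced chromatin protein, fell in CBFB KO (log2 fold change -1.20 ± 0.29, adjusted p = 0.000505) and was at -0.20 ± 0.12 in KO1 (adjusted p = 0.167). CEBPB, a leucine zipper transcription factor, fell in KO1 (-1.01 ± 0.10, adjusted p = 8.88e-22), fell under 2-fold in CBFB KO (-0.82 ± 0.11, adjusted p = 1.29e-11) and stood at -0.68 ± 0.27 in KO2 (adjusted p = 0.0651). DDIT4, an inhibitor of mTORC1, fell in KO1 (-1.81 ± 0.06, adjusted p = 2.06e-193) and likewise in KO2 (-1.18 ± 0.08, adjusted p = 1.32e-42), and stood at -0.73 ± 0.29 in CBFB KO (adjusted p = 0.0572).

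By adjusted p-value alone, 0 genes of the list were higher and 5 lower in CBFB KO, where 11.7% of all genes tested were higher and 7.97% lower. In KO1 2 were higher and 12 lower, against 19.7% and 19.9%. In KO2 1 was higher and 1 lower, against 8.76% and 6.08%. The list's median log2 fold change was -0.11 for CBFB KO, and -0.20 and -0.18 for KO1 and KO2, with medians over all genes tested of -0.01, 0.00 and 0.02. ATF4 itself, named after its values were seen because it acts upstream of FAM129A, was abundant and fell after CBFB loss (-0.38 ± 0.09, adjusted p = 0.000276) and also in KO1 (-0.58 ± 0.10, adjusted p = 7.14e-08), and stood at -0.20 ± 0.27 in KO2 (adjusted p = 0.766). ATF4 is regulated mainly through translation, which these tables do not measure.

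The list of ER chaperones and of the IRE1 and ATF6 arms of the unfolded protein response (18 genes) had no gene past both thresholds in any comparison. By adjusted p-value alone, CBFB KO had 1 gene higher and 0 lower of 18 tested, where 11.7% and 7.97% of all genes were. KO1 had 4 higher and 9 lower of 18, against 19.7% and 19.9%, and KO2 had 0 higher and 2 lower of 17, against 8.76% and 6.08%. The list's medians were 0.13, -0.13 and -0.10. HSPA5, the main ER chaperone and a common readout of ER stress (named after its values were seen), was at 0.08 ± 0.15 in CBFB KO (adjusted p = 0.796), fell by 0.38 on the log2 scale in KO1 (adjusted p = 1.82e-05) and was at -0.26 ± 0.16 in KO2 (adjusted p = 0.354).

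The 14 genes of mTOR signalling and cap-dependent translation and the 11 genes of EGFR, RAS-RAF-ERK and beta-catenin signalling, the latter tied to FAM129B, also had none past both thresholds. Of the mTOR and translation list, by adjusted p-value alone, CBFB KO had 1 gene higher and 1 lower of 14 tested (11.7% and 7.97% of all genes). KO1 had 1 higher and 6 lower of 14 (19.7% and 19.9%), and KO2 had 0 higher and 3 lower of 13 (8.76% and 6.08%). EIF4B, a helicase cofactor of cap-dependent translation, was the gene lower in all 3 (-0.33 ± 0.11, -0.30 ± 0.06 and -0.35 ± 0.11, adjusted p = 0.0262, 3.11e-05 and 0.0108). Of the EGFR and ERK list, set against the same shares, CBFB KO had 2 genes higher and 0 lower of 11 tested, KO1 had 4 and 0 of 11, and KO2 had 0 and 0 of 10. CTNNB1, the gene of beta-catenin, rose after CBFB loss (0.54 ± 0.10, adjusted p = 7.87e-07) and also in KO1 (0.62 ± 0.06, adjusted p = 7.26e-23), and was at 0.36 ± 0.18 in KO2 (adjusted p = 0.193). Both were named after their values were seen.

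**Figure D4:**
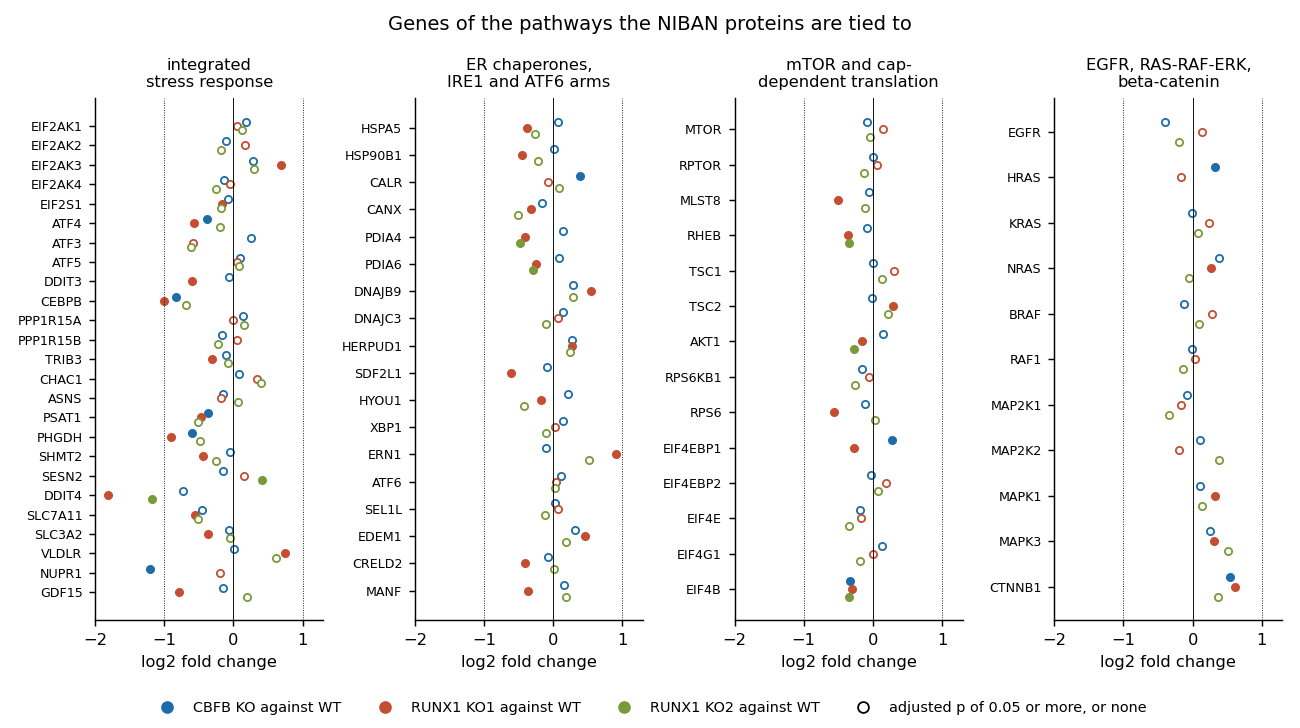
Deposited log2 fold change (horizontal axis) of each listed gene of the 4 pathway lists in the 3 comparisons, with filled points for an adjusted p-value under 0.05 and dotted lines at a 2-fold change. Most points lie within the dotted lines, and DDIT4, CEBPB and NUPR1 are the genes that pass both thresholds, all to the left.

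No tested gene beside FAM129A on the chromosome came near its fold change. Among the 5 listed genes on each side, 8 were tested in each comparison. Of these, 0 were called in CBFB KO and KO1, and 1 was called higher in KO2 and 0 lower. The shares of all genes called higher and lower were 1.72% and 1.26% for CBFB KO, against 3.36% and 1.57% for KO1 and 3.9% and 1.58% for KO2, so counts of 0 or 1 in 8 are near the background. That gene was COLGALT2, a collagen galactosyltransferase, with a mean of 8.27 normalized counts and a log2 fold change of 1.11 ± 0.37 (adjusted p = 0.0218). In KO1 COLGALT2 stood at 0.90 ± 0.31 (adjusted p = 0.0111, under 2-fold) and at -0.30 ± 0.29 in CBFB KO (adjusted p = 0.524). The nearest listed genes, EDEM3 and RNF2, lay between -0.01 and 0.41. Across all 8, the log2 fold changes spanned -0.47 to 0.33 for CBFB KO, while for KO1 they spanned -0.30 to 0.90 and for KO2 -0.45 to 1.11. Of the 10 neighbors of FAM129B, all tested, 0 were called in any comparison. Their median log2 fold changes were 0.20, 0.22 and 0.26, beside 0.24, 0.13 and 0.22 for FAM129B itself. Single neighbors ranged from -0.47 in KO1 to 0.91 in KO2.

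**Figure D5:**
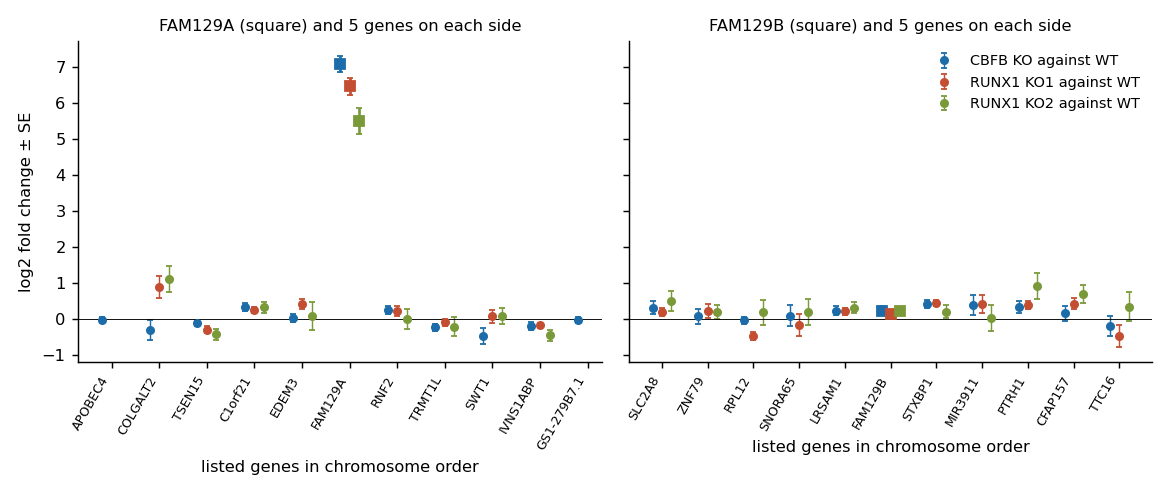
Deposited log2 fold change ± SE (vertical axis) of FAM129A, FAM129B (squares) and the 5 listed genes on each side in chromosome order, colored by comparison. FAM129A rises to between 5.50 and 7.08 while its tested neighbors stay between -0.47 and 1.11, and FAM129B lies among its neighbors.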

How the data were processed

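Sequencing libraries of MCF10A cells were compared as knockout against WT. The labels name a TruSeq mRNA kit and the study's methods removal of ribosomal RNA, and which applies was not settled. Per the labels the authors used Trimmomatic, STAR, DESeq2 and hg19. Their 3 deposited tables give the mean normalized count per gene (a signal already scaled by the authors), the authors' shrunken log2 fold change with its SE, and the authors' Wald p-values adjusted over all genes tested. They hold 0 columns of per-sample values. These columns are the authors' own comparisons, used because the tables give nothing else. The test score column was left out.

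Group levels were first computed from mean and fold change, then recovered by solving the fit's equations, with the SD of the prior (0.586, 0.628 and 0.822) taken as 2 times the largest SE. The recovery was tested on simulated data. These were fitted with the same equations and prior SD, so the test cannot show that the authors' fit used them. Their dispersions also lay below that recovered for FAM129A in KO2, and their largest fold lay below its recovered fold in every comparison. Error was scored after a constant was added to both levels, which dampens error at so low a WT level. The test therefore does not cover the recovered fold of FAM129A. Python 3.11.15 with numpy 2.4.6, scipy 1.17.1 and pandas 2.3.3 was used. Nothing says that replicates came from separate cultures, so p-values may measure technical spread only. The depth of single libraries is not known. Calls needed an adjusted p-value under 0.05 and 2-fold. The members and the gene lists were chosen with earlier results of these data known. Named were the members, FAM129C, CBFB, RUNX1, called list genes and neighbors, and the 5 nearest genes by Euclidean distance of fold changes, and other names are marked. Names, gene order and promoters came from RefSeq (GRCh38.p14), lengths from GENCODE 29. Since the authors' build differs, no gene coordinates are given.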

Additional observations from a re-analysis of the deposited data

How the results depend on the processing

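No paired analysis was possible because the tables hold no value per library, and leaving out each replicate was not possible for the same reason. The planned removal of shrinkage with a prior SD equal to the largest SE was not run, since the largest SE of such a fit is the prior SD divided by 2. The recovered group means, added after seeing the data, replaced it. With them the WT level of FAM129A moved to 0.614, 1.02 and 0.87 normalized counts (CBFB, KO1 and KO2 tables) and its log2 fold change to 11.34, 9.37 and 9.22. This follows from the shrinkage itself, while knockout levels and all FAM129B values stayed within the spread between libraries. Read from the KO2 in place of the KO1 table, the implied RUNX1 WT level was 11.21 for FAM129A and 6225 for FAM129B. Subtracting the trend on transcript length and GC content left FAM129A between 5.51 and 7.07 but brought FAM129B to 0.0351 in KO1 and to -0.0139 in KO2, a reversed sign. Centring on the median moved no fold change beyond the spread. With no fold threshold, 10, 38 and 7 genes of the 4 pathway lists were called in CBFB KO, KO1 and KO2 in place of 1, 2 and 1, and 2, 9 and 3 neighboring genes in place of 0, 0 and 1. With a fold threshold of 4, 0 list genes were called in each. With a mean of at least 100, 0 list genes were called in CBFB KO, where NUPR1 (mean 76.8) dropped out. In all, 27 of 47 alternative values kept the main result. Reads in WT limit the fold of FAM129A, since its denominator rests on a recovered 2 to 4 reads over a group. Those reads were not observed, and their number depends on the assumed strength of the shrinkage.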
